A study of Homo sapiens with 12 samples.

Results

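The genes described here are 44 human genes of the NRF2 pathway and of the thioredoxin and glutathione systems, chosen by gene symbol. They were measured in HK-2, an immortalised cell line derived from human renal proximal tubule epithelium, exposed to Nnm (a compound known here by its label only, given at low dose) or to its vehicle. A probe set that lists the symbol and no other gene was found for 41 of the 44, and 37 were bright enough to be tested among 10907 genes. MAFK, PRDX5 and AKR1B1 had no such probe set and were not analysed here. ABCC2, AKR1B10 and GPX2 (2.29 to 2.65 on the log2 scale on all 12 arrays) and OSGIN1 (2.77 to 4.07) lay below the limit set for testing, a log2 value above 4 on at least 3 arrays.

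The wider study tested several compounds on this line in search of expression patterns of kidney toxicity. The groups used here were Nnm 24 h, control 24 h, Nnm 48 h and control 48 h, each with 3 arrays from biological replicates, and the controls received the vehicle for the same time. All groups shared the line, the hormone-supplemented medium (which contains selenite, the selenium source for selenoproteins) and near-confluent plates. Values are deposited log2 expression values, so a difference of 1 is a 2-fold difference, and values of different genes come from different probes and are not set against each other.

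NRF2, the protein of the gene NFE2L2, is a transcription factor that KEAP1 holds in the cytoplasm and passes on for degradation. When electrophiles or oxidants modify KEAP1, NRF2 accumulates, pairs with a small MAF protein and binds antioxidant response elements, where the repressor BACH1 competes with it. Its targets include quinone reductases, the enzymes that import cystine and build glutathione, and the thioredoxin system, in which a reductase keeps thioredoxin able to reduce peroxiredoxins and other proteins. The proximal tubule meets many filtered compounds and their conjugates and relies on glutathione for much of its defence against them.

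The promoters of members that passed the test at both times are shown, because these genes carry the result. They cover 250 bases before to 50 bases after a RefSeq transcription start (GRCh38.p14), and capitals mark matches to TGACNNNGC, the core of the antioxidant response element, or to TGACTCA, the AP-1 site, on either strand. The first is the window of NQO1 at chr16:69726511-69726810 on the minus strand. The other windows belong to TXNRD1, at chr12:104215529-104215828 and chr12:104286782-104287081 on the plus strand. All are written 5′ to 3′ on the strand of the gene.
NQO1: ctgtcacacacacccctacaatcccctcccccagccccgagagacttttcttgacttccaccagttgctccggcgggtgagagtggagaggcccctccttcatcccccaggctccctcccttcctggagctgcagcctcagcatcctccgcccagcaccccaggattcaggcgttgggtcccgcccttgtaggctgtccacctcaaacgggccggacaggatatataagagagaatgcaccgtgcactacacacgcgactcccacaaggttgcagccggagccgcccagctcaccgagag
TXNRD1, upstream start: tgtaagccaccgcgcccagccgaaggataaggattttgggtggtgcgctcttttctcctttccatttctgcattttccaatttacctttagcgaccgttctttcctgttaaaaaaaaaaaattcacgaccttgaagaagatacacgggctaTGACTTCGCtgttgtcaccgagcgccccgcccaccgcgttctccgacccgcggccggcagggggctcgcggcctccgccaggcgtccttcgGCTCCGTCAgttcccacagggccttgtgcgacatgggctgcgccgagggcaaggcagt
TXNRD1, downstream start: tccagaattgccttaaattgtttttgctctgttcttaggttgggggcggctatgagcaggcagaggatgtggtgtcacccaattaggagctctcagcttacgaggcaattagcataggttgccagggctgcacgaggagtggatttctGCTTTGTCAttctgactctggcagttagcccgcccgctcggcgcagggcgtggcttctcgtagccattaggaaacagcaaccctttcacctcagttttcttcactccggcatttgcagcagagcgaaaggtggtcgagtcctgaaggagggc
The upstream TXNRD1 window held TGACTTCGC on the gene's strand and TGACGGAGC on the other strand, and the downstream window held TGACAAAGC on the other strand. The NQO1 window held no match to either motif, which says only that these letters are not within it. GSS, which also passed at both times, has no window here. Over all 35116 windows of the RefSeq table, 13.3% held TGACNNNGC and 4.95% held TGACTCA. Among 53 windows of 32 members, 11 (20.8%) held the first motif and 4 (7.55%) the second, and a TGACTCAGC counts under both. GCLM (TGACTAAGC), ME1 and GSTP1 (TGACTCAGC each), EPHX1 (TGACTTGGC), GSTO1, KEAP1, MAFF, MGST1 and GPX2 were the other members with a match to TGACNNNGC. A match is a description of the sequence and not evidence of binding.

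The arrays of replicate 2 stood apart before any test. On the first principal component of all tested genes, which held 50.3% of the variance, the Nnm arrays of replicate 2 lay at -1.55 (24 h) and -3.28 (48 h), the other Nnm arrays at -31.2 to -43.2 and the controls at 18.6 to 34.4. A sign of RNA quality, the log2 value of the 5′ probe set of ACTB minus that of its 3′ probe set, was -1.14 and -1.17 on the Nnm arrays and -1.09 and -1.17 on the control arrays of replicate 2, against -0.74 to -0.86 on the other 8 arrays. The part of RNA quality in the results was not tested. Arrays of the same number deviated together, so the value from a fit blocked by replicate number is given where it changes a call. Values without both Nnm replicate 2 arrays, and in places without all 4 replicate 2 arrays, are also given for some members. The Nnm replicate 2 arrays were the Nnm arrays nearest to the controls on this component, so leaving them out tends to enlarge the differences. Such p-values show only how far a result depends on these arrays, and carry no support of their own. Of 13 proximal tubule and kidney markers with a probe set, PAX8, CDH6, CDH16 and DPP4 were above the limit, while LRP2, CUBN, AQP1 and 6 others were not. All 5 general epithelial markers (KRT8, KRT18, KRT19, EPCAM and CDH1) were above it, none of 3 leukocyte markers, 1 of 4 endothelial markers and 3 of 6 fibroblast markers. The summed level of the kidney markers was 13.48 to 14.29 in Nnm 24 h, against 13.30 to 13.65 in control 24 h, and 14.53 to 14.85 in Nnm 48 h, against 13.36 to 13.60 in control 48 h (log2 of the sum). This sum follows its brightest marker most, CDH6, at 12.16 to 14.00 over the arrays. The fibroblast sum was also higher at 48 h, at 12.38 to 12.55 in Nnm, against 12.19 to 12.30 in control, and overlapped at 24 h. The general epithelial sum overlapped at both times. The part of these markers in the results was not tested, and in bulk RNA fewer cells of a type and less RNA per cell cannot be told apart.

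After 24 h with Nnm, NQO1, TXNRD1, SLC7A11, GCLC and ME1 rose and GSS fell, while 31 of the 37 tested members did not pass (limma, adjusted p under 0.05 over all genes). The 6 called members are 16.2% of those tested, against 19.4% of all genes, so the number of calls does not set the members apart. Rises made up 13.5% of the members, against 10.6% of all genes. The median member change was 0.14, beside 0.01 over all genes, and 25 of 37 members lay above 0. The rises of SLC7A11, TXNRD1 and NQO1 exceeded 2-fold. There was no overlap between Nnm and control arrays in 11 of 37 members, against 39.8% of all genes. With the replicate block 13 members were called, 11 up and 2 down, beside 38.8% of all genes (20% up and 18.8% down). Without both Nnm replicate 2 arrays 14 were called, 12 of them up, beside 34% of all genes (18.1% up). Without Nnm 24 h replicate 1 or 3, or control 24 h replicate 1 or 3, the 2 members called were NQO1 and TXNRD1. SLC7A11, GCLC, GSS and ME1 each lost the call without each of these arrays, at adjusted p of up to 0.0833, 0.0971, 0.148 and 0.155. Of the 12 fits that each left out a single array, the call held in 8 for SLC7A11, 7 for GCLC, 3 for GSS and 2 for ME1. GSS and ME1 also lost it without some of the 48 h arrays.

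**Figure D1:**
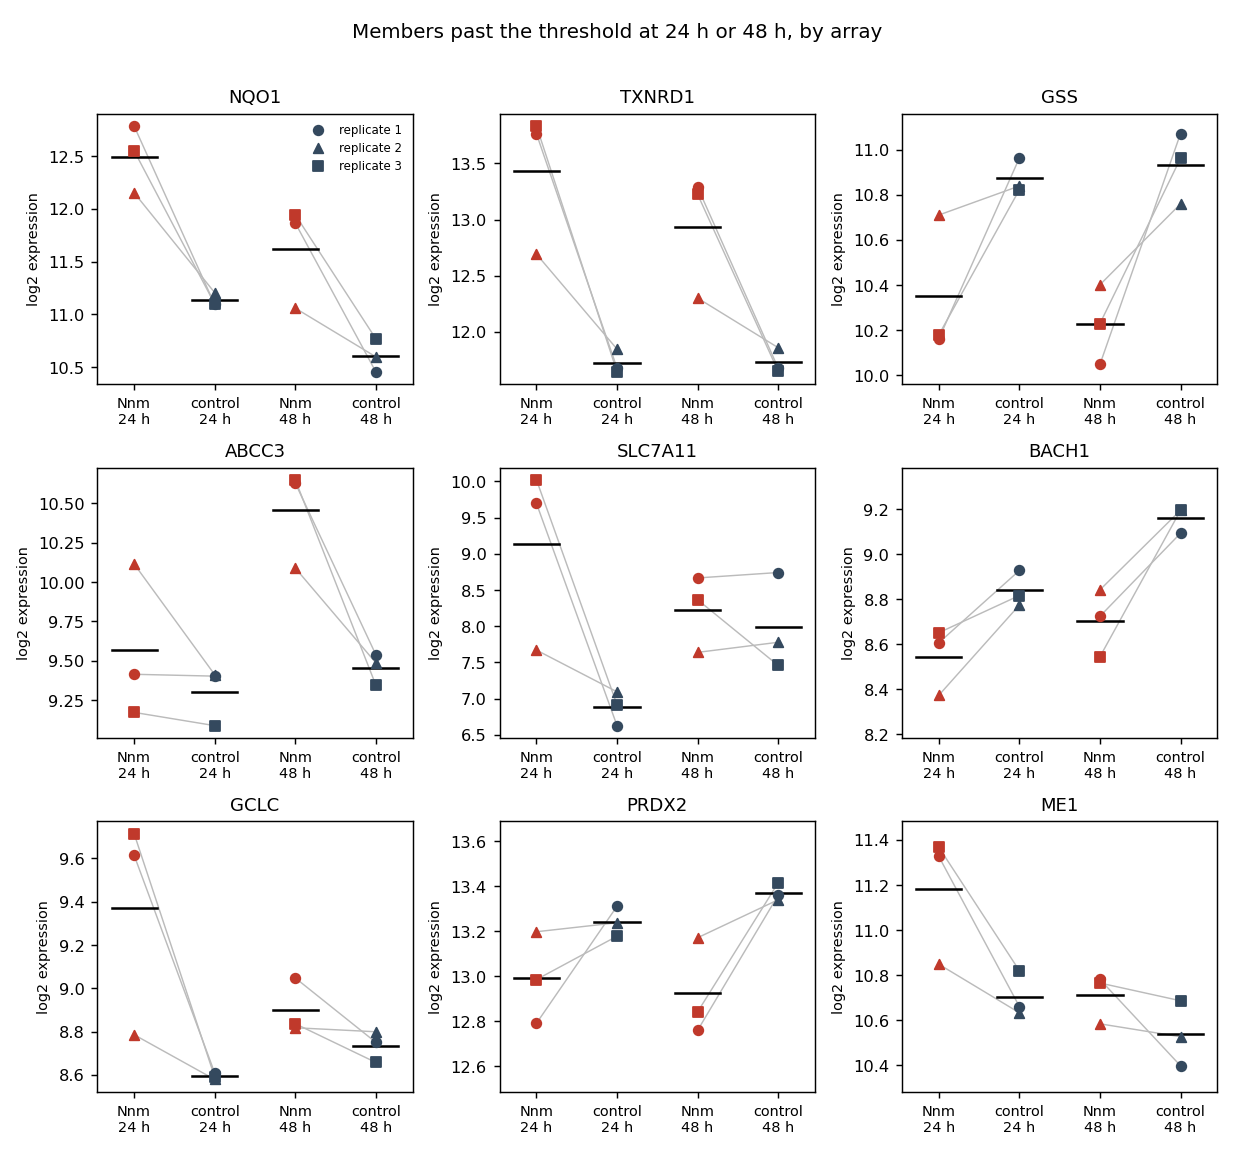
Log2 expression on each array (vertical axis) of the 9 members that passed the threshold at 24 h or 48 h, in the 4 groups (horizontal axis); red symbols are Nnm arrays, dark symbols control arrays, black lines group means (n = 3), and grey lines join arrays of the same time and replicate number (circle 1, triangle 2, square 3). At 24 h the red triangle of replicate 2 is the Nnm array nearest to the controls for NQO1, TXNRD1, SLC7A11, GCLC, ME1 and GSS.

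The cytosolic thioredoxin reductase TXNRD1, a selenoprotein that passes electrons from NADPH to thioredoxin, had log2 values of 13.76, 12.69 and 13.83 in Nnm 24 h (replicates 1, 2 and 3, the order used throughout), against 11.68, 11.85 and 11.64 in control 24 h. Every Nnm array was above every control array, and replicate 2 was the lowest of the Nnm arrays. The rise was 1.71 (SE 0.31, limma adjusted p = 0.0087), a ratio of 3.27 with an interval of 2.03 to 5.27 (95%). In cells kept for 48 h it had 13.29, 12.30 and 13.22 in Nnm, against 11.68, 11.86 and 11.65 in control. The groups were again apart, with a rise of 1.21 (SE 0.31, adjusted p = 0.0308). The control levels of TXNRD1 at 24 h and 48 h differed by less than the spread between arrays, at means of 11.72 ± 0.11 and 11.73 ± 0.11 (SD, n = 3).

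NQO1, the quinone reductase that is widely used as a readout of NRF2, had 12.78, 12.15 and 12.55 in Nnm 24 h, against 11.09, 11.21 and 11.10 in control 24 h. No values overlapped, and the rise was 1.36 (SE 0.23, limma adjusted p = 0.00715), a ratio of 2.57 (1.81 to 3.64). At 48 h it had 11.87, 11.06 and 11.94 in Nnm, against 10.46, 10.60 and 10.77 in control. The rise of 1.01 (SE 0.23, adjusted p = 0.0191) came with lower values than at 24 h in both groups. All 3 of its probe sets gave a rise at both times, of 1.36 to 1.75 at 24 h and 1.01 to 1.29 at 48 h. NQO1 and TXNRD1 at 24 h were the calls of members that held without each of the 12 arrays in turn, at adjusted p of up to 0.0367 for NQO1 and 0.0435 for TXNRD1.

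In the supply and recycling of glutathione, 3 of 6 members rose and 1 fell at 24 h, beside 19.4% of all genes called. SLC7A11, the cystine importer that feeds glutathione synthesis, had 9.70, 7.67 and 10.02 in Nnm 24 h, against 6.63, 7.09 and 6.92 in control 24 h. The Nnm array of replicate 2 lay 0.58 above the control array of its number, where replicates 1 and 3 lay 3.07 and 3.11 above theirs. The rise was 2.25 (SE 0.55, limma adjusted p = 0.0213), a ratio of 4.76 with a wide interval of 2.05 to 11.1. Its second probe set gave 2.49. At 48 h SLC7A11 had 8.67, 7.64 and 8.37 in Nnm, against 8.74, 7.78 and 7.46 in control, and the groups overlapped (0.23, SE 0.55, adjusted p = 0.812). The control mean was 7.99 at 48 h and 6.88 at 24 h, a difference of 1.11 that did not pass (adjusted p = 0.361). The difference between the Nnm effects at 48 h and at 24 h was -2.02 (SE 0.78), which did not pass either (adjusted p = 0.754).

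GCLC, the catalytic subunit of the enzyme that limits the rate of glutathione synthesis, had 9.61, 8.79 and 9.71 in Nnm 24 h, against 8.61, 8.58 and 8.59 in control 24 h. The Nnm array of replicate 2 was the lowest of its group and still above the controls. The rise was 0.78 (SE 0.20, limma adjusted p = 0.0255). At 48 h the values were 9.05, 8.82 and 8.84 in Nnm, against 8.75, 8.80 and 8.66 in control, and the difference of 0.16 did not pass (adjusted p = 0.617). GCLM, the modifier subunit of the same enzyme, did not pass at either time, at 0.36 and 0.17 (SE 0.33), though without both Nnm replicate 2 arrays it passed at 24 h, at 0.77 (adjusted p = 0.0343). At 24 h it had 10.72, 9.64 and 10.98 in Nnm, against 10.04, 9.72 and 10.49 in control, and the groups overlapped.

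GSS, the glutathione synthetase that adds glycine in the last step, had 10.16, 10.71 and 10.18 in Nnm 24 h, against 10.96, 10.84 and 10.82 in control 24 h. All Nnm arrays were lower than all control arrays, with replicate 2 nearest to the controls. It fell by 0.53 on the log2 scale (SE 0.16, limma adjusted p = 0.0437), though not with arrays centred on their medians (adjusted p = 0.0525), quantile normalised (adjusted p = 0.055) or blocked within each time (adjusted p = 0.0558). At 48 h it had 10.05, 10.40 and 10.23 in Nnm, against 11.07, 10.76 and 10.96 in control. The groups did not overlap, and it fell by 0.71 (SE 0.16, adjusted p = 0.0201), to a ratio of 0.613. Both of its probe sets were lower in Nnm at both times, the second at -0.63 and -0.71.

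ME1, the cytosolic malic enzyme that makes NADPH, had 11.33, 10.85 and 11.37 in Nnm 24 h, against 10.66, 10.63 and 10.82 in control 24 h. The lowest Nnm value, in replicate 2, was just above the highest control value. It rose by 0.48 (SE 0.15, limma adjusted p = 0.0452), but as the mean of its probe sets by 0.35, which did not pass (adjusted p = 0.12). The 48 h difference was 0.17 (adjusted p = 0.452). GSR, the glutathione reductase, had 10.02, 9.18 and 10.17 in Nnm 24 h, against 9.34, 8.96 and 9.26 in control 24 h, a difference of 0.61 that did not pass (adjusted p = 0.0841) but did with the replicate block (adjusted p = 0.0157) and, at 0.91, without both Nnm replicate 2 arrays (adjusted p = 0.00135). At 48 h GSR was lower on all 3 Nnm arrays than on any control array (9.29, 8.91 and 9.22 in Nnm, against 9.51, 9.31 and 9.35 in control), and the difference of -0.25 did not pass (adjusted p = 0.49). The second GSR probe set was at 0.47 at 24 h and 0.02 at 48 h, so it was not lower in Nnm.

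**Figure D2:**
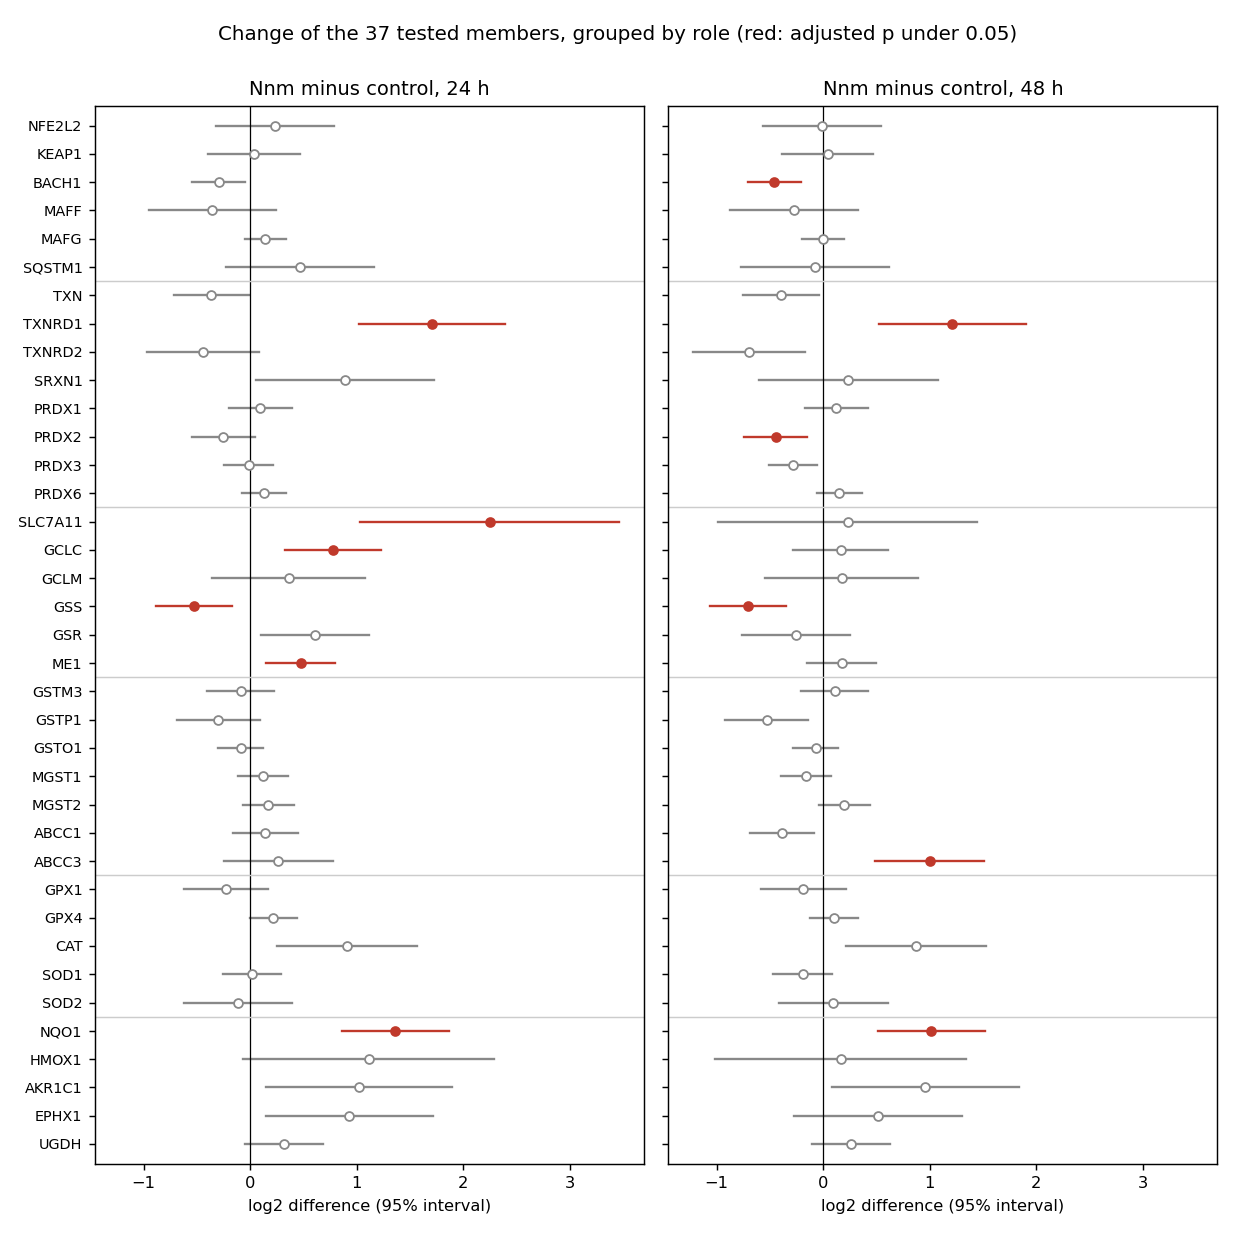
Difference between Nnm and control (horizontal axis, log2 units, with the 95% interval of limma) for the 37 tested members (vertical axis, grouped by role) at 24 h (left) and 48 h (right); red marks an adjusted p under 0.05. TXNRD1 and NQO1 lie to the right of 0 and GSS to the left at both times, and SLC7A11 at 24 h has the largest difference, 2.25.

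The sensor and the transcription factors of the pathway were not among the genes called at 24 h. NFE2L2 had 11.93, 11.19 and 11.85 in Nnm 24 h, against 11.62, 11.16 and 11.49 in control 24 h. The groups overlapped, and the difference was 0.23 with an interval of -0.32 to 0.79 (limma adjusted p = 0.531). At 48 h it had 11.90, 11.20 and 11.68 in Nnm, against 11.91, 11.26 and 11.65 in control, a difference of -0.01 (-0.56 to 0.54). KEAP1 had 9.96, 9.44 and 9.75 in Nnm 24 h, against 9.83, 9.41 and 9.79 in control 24 h, and its difference was 0.04 (-0.39 to 0.47). At 48 h it had 9.83, 9.25 and 9.52 in Nnm, against 9.71, 9.26 and 9.51 in control, likewise at 0.04 (-0.39 to 0.47). For both genes replicate 2 was the lowest array of every group.

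BACH1, the heme-sensitive repressor at the same sites, had 8.72, 8.84 and 8.54 in Nnm 48 h, against 9.09, 9.19 and 9.19 in control 48 h. It fell by 0.46 (SE 0.11, limma adjusted p = 0.0268), with no overlap between the groups. At 24 h its values were 8.61, 8.37 and 8.65 in Nnm, against 8.93, 8.77 and 8.82 in control. These did not overlap either, but the difference of -0.30 did not pass (adjusted p = 0.0865). BACH1 is one of the members in which replicate 2 did not have the smallest difference at 24 h, at -0.40 beside -0.32 and -0.17 in replicates 1 and 3. MAFF and MAFG, small partners of NRF2, did not pass at either time, with differences of -0.36 and 0.14 at 24 h and -0.27 and 0.00 at 48 h. SQSTM1 (p62), an autophagy receptor that binds KEAP1, had 12.42, 11.05 and 12.37 in Nnm 24 h, against 11.59, 11.28 and 11.55 in control 24 h. Replicates 1 and 3 were higher than all controls and replicate 2 lower than all of them, and the difference of 0.47 did not pass (adjusted p = 0.302, and 0.92 with adjusted p = 0.00208 without both Nnm replicate 2 arrays).

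HMOX1, the inducible heme oxygenase that BACH1 represses, had 9.92, 7.41 and 9.83 in Nnm 24 h, against 8.01, 7.65 and 8.15 in control 24 h. The Nnm arrays of replicates 1 and 3 were the highest of the series for this gene, and that of replicate 2 was the lowest. The difference of 1.12 (SE 0.53) did not pass (limma adjusted p = 0.156, and adjusted p = 0.066 with the block). Without both Nnm replicate 2 arrays it was 1.94 (adjusted p = 0.000276). At 48 h HMOX1 had 8.01, 7.70 and 8.24 in Nnm, against 7.57, 7.73 and 8.16 in control, an overlapping difference of 0.16 (adjusted p = 0.868). Sulfiredoxin SRXN1, which repairs over-oxidised peroxiredoxins, had a similar arrangement at 24 h, with 9.79, 8.20 and 10.01 in Nnm, against 8.37, 8.22 and 8.73 in control. Its difference was 0.89 (adjusted p = 0.116, adjusted p = 0.0349 with the block, and 1.46 with adjusted p = 0.000541 without both Nnm replicate 2 arrays).

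**Figure D3:**
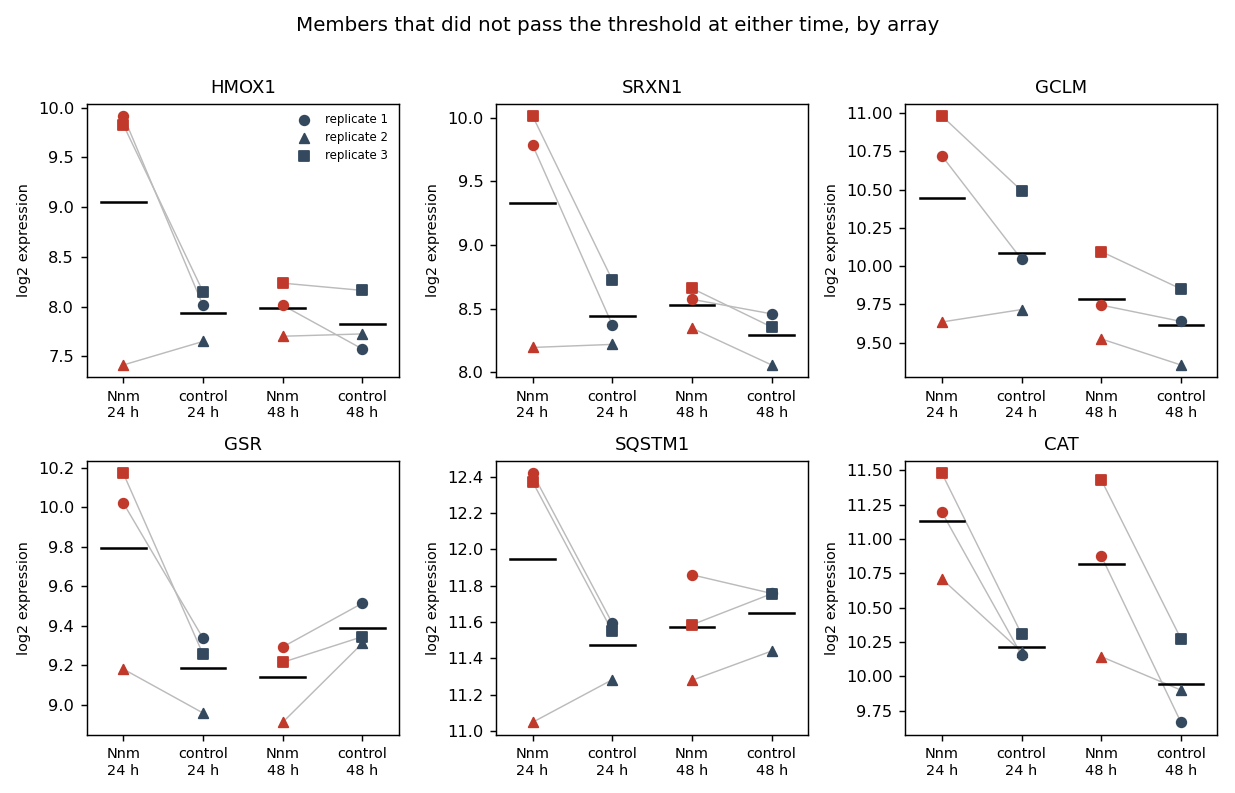
Log2 expression on each array (vertical axis) of 6 members that did not pass at either time, chosen for display after their values were seen, in the 4 groups (horizontal axis) with the symbols and lines of the plot of called members. For HMOX1, SRXN1, GCLM and SQSTM1 at 24 h, the Nnm arrays of replicates 1 and 3 lie above their control arrays and the Nnm array of replicate 2 lies below its control array.

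Compared by replicate number, the Nnm effect on these genes at 24 h was smallest in replicate 2 for 28 of 37 members (75.7%), against 60.4% of all genes. The median member difference at 24 h was 0.23 in replicate 1, 0.01 in replicate 2 and 0.18 in replicate 3, where the medians of all genes were 0.00, 0.01 and 0.01. At 48 h replicate 2 was smallest for 22 of 37 members (59.5%), against 59.2% of all genes, a share near that of all genes. In 8 members at 24 h the sign in replicate 2 was opposite to that in both others (21.6%, against 18.1% of all genes), among them HMOX1 at 1.90, -0.24 and 1.68, SQSTM1 at 0.82, -0.23 and 0.82, GCLM at 0.68, -0.08 and 0.49 and SRXN1 at 1.41, -0.02 and 1.29. TXNRD1 (2.09, 0.85 and 2.19) and NQO1 (1.69, 0.95 and 1.45) were among 25 of 37 members (67.6%) that kept one sign in all 3 replicates at 24 h, against 64.5% of all genes. These shares describe the 3 pairs and carry no test.

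**Figure D4:**
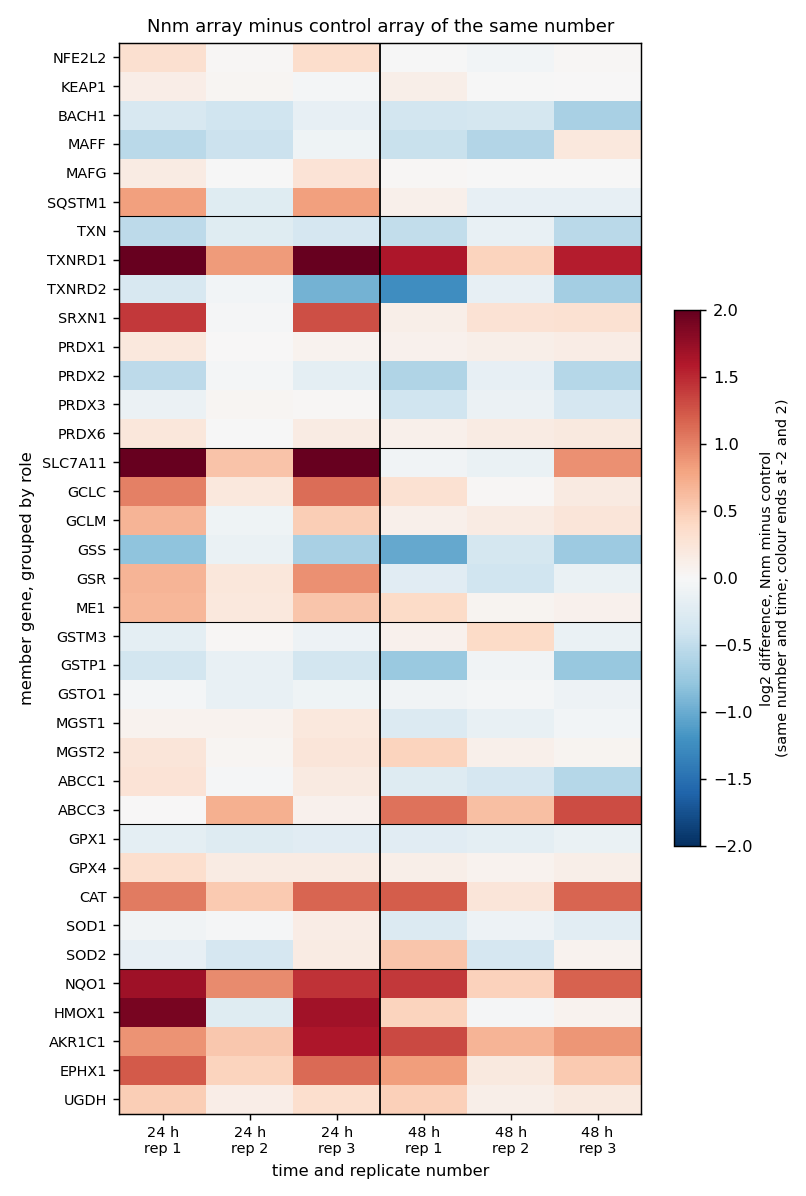
Log2 difference between the Nnm array and the control array of the same replicate number (colour, red for higher in Nnm, blue for lower) for the 37 tested members (vertical axis, grouped by role) in replicates 1, 2 and 3 at 24 h and 48 h (horizontal axis). The column of replicate 2 at 24 h is paler than its neighbours, with HMOX1 at -0.24 between 1.90 and 1.68.

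Neither thioredoxin nor any of the 4 tested peroxiredoxins rose at either time. TXN, thioredoxin itself, had 13.32, 13.64 and 13.70 in Nnm 24 h, against 13.84, 13.87 and 14.03 in control 24 h. Every Nnm array was below every control array, and the difference of -0.36 did not pass (limma adjusted p = 0.126) but did with the replicate block (adjusted p = 0.027). At 48 h TXN had 12.92, 13.47 and 13.21 in Nnm, against 13.42, 13.62 and 13.75 in control. The groups overlapped, at a difference of -0.40 (adjusted p = 0.117, adjusted p = 0.0236 with the block, and adjusted p = 0.0339 without both Nnm replicate 2 arrays). Without all 4 replicate 2 arrays TXN did not pass at 48 h (adjusted p = 0.0989). TXNRD2, the mitochondrial reductase, had differences of -0.44 at 24 h and -0.69 at 48 h (adjusted p = 0.0741 at 48 h, adjusted p = 0.0344 with the block, and adjusted p = 0.0223 without all 4 replicate 2 arrays). Without both Nnm replicate 2 arrays TXNRD2 did not pass at 48 h (adjusted p = 0.0838). The fit without all 4 replicate 2 arrays called 2459 of the 10907 genes at 48 h.

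PRDX2, a cytosolic peroxiredoxin, had 12.76, 13.17 and 12.84 in Nnm 48 h, against 13.36, 13.34 and 13.41 in control 48 h. It fell by 0.45 (SE 0.13, limma adjusted p = 0.0489), with replicate 2 nearest to the controls. As the mean of its probe sets PRDX2 was at -0.24 and did not pass (adjusted p = 0.245), and it did not pass with arrays centred on their medians (adjusted p = 0.0545) or blocked within each time (adjusted p = 0.0522). At 24 h the difference was -0.25 (adjusted p = 0.198, and adjusted p = 0.0256 without both Nnm replicate 2 arrays). PRDX3, the mitochondrial peroxiredoxin, was at -0.28 at 48 h with no overlap (adjusted p = 0.0859, adjusted p = 0.0308 with the block, and adjusted p = 0.0171 without both Nnm replicate 2 arrays). PRDX1 and PRDX6 did not pass at either time, at 0.10 to 0.15.

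Of the enzymes that remove peroxide and superoxide, none of 5 passed at either time, where 19.4% (24 h) and 13.8% (48 h) of all genes did. GPX4, the selenoprotein that reduces lipid hydroperoxides, had 13.47, 13.26 and 13.26 in Nnm 24 h, against 13.14, 13.09 and 13.10 in control 24 h. The values did not overlap, and the difference of 0.22 did not pass (limma adjusted p = 0.142). At 48 h GPX4 had 13.40, 13.21 and 13.40 in Nnm, against 13.28, 13.15 and 13.28 in control, overlapping at a difference of 0.10. Catalase (CAT) had 11.19, 10.71 and 11.48 in Nnm 24 h, against 10.16, 10.18 and 10.31 in control 24 h. The groups were apart and the difference of 0.91 lay next to the threshold (adjusted p = 0.0542, and adjusted p = 0.0099 with the block). In a limma fit of single probe sets, the second CAT probe set was at 1.11 at 24 h (adjusted p = 0.0415) and 0.94 at 48 h (adjusted p = 0.0808). At 48 h the difference of CAT was 0.87 (adjusted p = 0.0734, and adjusted p = 0.0144 with the block). Without both Nnm replicate 2 arrays CAT passed at both times (adjusted p = 0.00402 and 0.00367). SOD1, the cytosolic superoxide dismutase, had 13.13, 13.40 and 13.42 in Nnm 24 h, against 13.20, 13.42 and 13.28 in control 24 h, and 12.70, 13.04 and 12.91 in Nnm 48 h, against 12.97, 13.14 and 13.12 in control 48 h. Its groups overlapped at both times, at differences of 0.02 (-0.26 to 0.29) and -0.19 (-0.47 to 0.08). The mitochondrial enzyme SOD2 (-0.11 and 0.10) was read from a single probe set, since its other probe sets list a second gene, and GPX1 was at -0.22 and -0.19.

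Among members that use glutathione or export its conjugates, none of 7 passed at 24 h and 1 rose at 48 h, where 19.4% and 13.8% of all genes were called. ABCC3, an export pump for organic anions and conjugates, had 10.63, 10.09 and 10.65 in Nnm 48 h, against 9.54, 9.49 and 9.35 in control 48 h. It rose by 1.00 (SE 0.23, limma adjusted p = 0.0216) with no overlap between the groups. At 24 h ABCC3 had 9.41, 10.12 and 9.17 in Nnm, against 9.40, 9.41 and 9.09 in control, and here replicate 2 was the array that stood above the others. The difference at 24 h was 0.27 (adjusted p = 0.434). Its 5 probe sets did not all run the same way (-0.41 to 1.00 at 48 h), and their mean at 48 h was 0.42 (adjusted p = 0.0903). In a limma fit of single probe sets, a weaker one was at -0.77 at 24 h (adjusted p = 0.0153). The others lay between 0.16 and 0.34 at 24 h and did not pass. ABCC1, another export pump of the same family, had differences of 0.14 at 24 h and -0.39 at 48 h (adjusted p = 0.0809, adjusted p = 0.0239 with the block, and adjusted p = 0.0418 without both Nnm replicate 2 arrays).

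GSTP1, a cytosolic glutathione transferase, had 12.01, 11.73 and 11.91 in Nnm 24 h, against 12.38, 11.88 and 12.28 in control 24 h, overlapping at a difference of -0.30 (limma adjusted p = 0.25). At 48 h it had 10.90, 11.11 and 11.04 in Nnm, against 11.65, 11.19 and 11.81 in control. The groups were just apart, and the difference of -0.53 did not pass (adjusted p = 0.0689) but did with the block (adjusted p = 0.023) and, at -0.76, without all 4 replicate 2 arrays (adjusted p = 0.00812). Without both Nnm replicate 2 arrays GSTP1 did not pass at 48 h (adjusted p = 0.061). The other transferases GSTM3, GSTO1, MGST1 and MGST2 did not pass at either time and lay between -0.16 and 0.20.

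Of the other quinone, carbonyl and conjugation enzymes, AKR1C1 was at 1.02 at 24 h and 0.96 at 48 h, which did not pass (limma adjusted p = 0.0908 and 0.125) but did with the block (adjusted p = 0.0154 and 0.023). In a fit of single probe sets, its second probe set was at 0.95 at 24 h (adjusted p = 0.037) and 0.67 at 48 h (adjusted p = 0.121). Its probe sets can share sequence with the related AKR1C2. EPHX1, the microsomal epoxide hydrolase, had 12.99, 11.65 and 12.31 in Nnm 24 h, against 11.76, 11.20 and 11.19 in control 24 h. The groups overlapped through the Nnm array of replicate 2, and the difference of 0.93 did not pass (adjusted p = 0.0868) but did with the block (adjusted p = 0.00516) and, at 1.27, without both Nnm replicate 2 arrays (adjusted p = 0.00726). At 48 h EPHX1 was at 0.52 (adjusted p = 0.348, adjusted p = 0.046 with the block, and 0.83 with adjusted p = 0.0485 without both Nnm replicate 2 arrays). UGDH, which makes UDP-glucuronic acid for conjugation, was at 0.32 at 24 h (adjusted p = 0.192, and adjusted p = 0.0326 with the block) and 0.26 at 48 h.

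After 48 h with Nnm 6 of the 37 members had changed, NQO1, TXNRD1 and ABCC3 up and GSS, BACH1 and PRDX2 down (limma). They are 16.2% of the members tested, against 13.8% of all genes, a share again near the background. Rises were 8.11% of the members tested, as were falls, against 8.45% and 5.34% of all genes. The median member change was 0.10, beside 0.02 over all genes, and the groups did not overlap in 14 members (36.1% of all genes). With the replicate block 14 members were called, 6 up and 8 down, beside 32.2% of all genes (18.5% up and 13.7% down). Without both Nnm replicate 2 arrays 11 were called, 5 of them up, beside 28.9% of all genes (16.4% up). Over both times, 9 members were called at least once and 28 at neither. The calls at 48 h were each lost without at least 4 of the 12 arrays left out singly, and that of PRDX2 held in only 3 of these fits. Without the Nnm 48 h array of replicate 1 or 3, or the control 48 h array of replicate 1 or 3, no member was called at 48 h (9 to 10 had an unadjusted p under 0.05), and the adjusted p reached 0.0837 for NQO1, 0.118 for TXNRD1, 0.0884 for ABCC3, 0.0856 for GSS, 0.0982 for BACH1 and 0.169 for PRDX2. The comparisons at 24 h and 48 h contrast separate arrays, but they share a fit and its spread. Arrays of the same number also correlated across the times (0.318 to 0.696 after group means were removed), so the comparisons are not independent.

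Within vehicle-treated cells, no member differed between control 48 h and control 24 h (limma), where 0.128% of all genes did and 3 members had an unadjusted p under 0.05. The 2 control groups did not overlap in 11 members (26.3% of all genes). GSTP1 had the smallest p, at -0.63 (adjusted p = 0.179), and it passed with the replicate block (adjusted p = 0.0313), 1 member beside 8.47% of all genes. Within Nnm-treated cells no member passed between Nnm 48 h and Nnm 24 h, where 0.119% of all genes did and 10 members had an unadjusted p under 0.05. These 2 groups did not overlap in 8 members (12.7% of all genes). With the block GSTP1 (-0.86, adjusted p = 0.0247) and SOD1 (-0.43, adjusted p = 0.0332) passed, beside 2.29% of all genes. A higher mean in Nnm 48 h than in Nnm 24 h was found in 6 of the 37 members (49.1% of all genes), and a higher mean in control 48 h than in control 24 h in 19 (47.0% of all genes). No member had an Nnm effect that passed as different between 48 h and 24 h, and neither did any of the 10907 genes (0%, limma, with 4 members and 698 genes at an unadjusted p under 0.05). With the block 0 members and 0.0183% of all genes passed. The members with the smallest p were ABCC1 at -0.53, GSR at -0.86, SLC7A11 at -2.02 and ABCC3 at 0.73, at adjusted p of 0.737 to 0.778. Without both Nnm replicate 2 arrays ABCC3 passed (adjusted p = 0.0481), beside 0.33% of all genes. Without all 4 replicate 2 arrays no member and no other gene passed.

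Other genes of the same pathway were read from lists chosen by name, with earlier results of these data known. The shares of all genes beside them are therefore a description and not an independent test. Of 24 further NRF2 targets tested (29 listed), 9 rose and 0 fell at 24 h (limma), against 10.6% of all genes called as higher and 8.85% as lower. At 48 h 3 rose and 0 fell, against 8.45% and 5.34%. The list median was 0.36 at both times, beside 0.01 and 0.02 over all genes. ALDH3A2, a fatty aldehyde dehydrogenase, averaged 11.21 ± 0.34 in Nnm 24 h and 9.64 ± 0.14 in control 24 h (SD, n = 3), and rose by 1.57 (adjusted p = 0.00496) at 24 h and 1.11 (adjusted p = 0.0118) at 48 h. PIR, an iron-binding nuclear protein, rose by 0.79 (adjusted p = 0.0136) and 0.62 (adjusted p = 0.0356). At 24 h alone the carbonyl reductase CBR3 passed with a rise of 0.82 (adjusted p = 0.0122) and IDH1, the cytosolic isocitrate dehydrogenase that makes NADPH, with 0.56 (adjusted p = 0.016). BLVRB, NQO2, AKR1C2, AKR1C3 and ABCC5 were the others that rose at 24 h, and ETHE1 rose at 48 h. The block gave 13 and 7 rises and no fall.

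**Figure D5:**
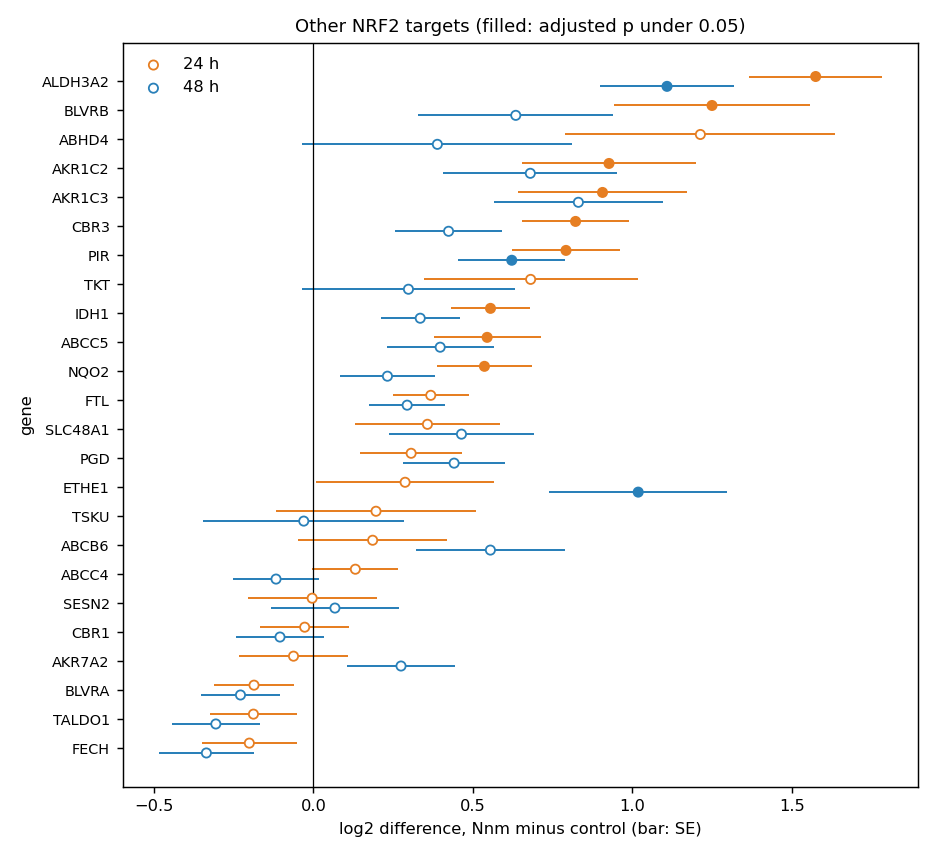
Difference between Nnm and control (horizontal axis, log2 units, bars are limma's SE) for the 24 tested genes of the list of other NRF2 targets (vertical axis) at 24 h (orange) and 48 h (blue); filled symbols passed the threshold. ALDH3A2 is at the top with 1.57 and 1.11, and no filled symbol lies left of 0.

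Of 12 regulators and relatives of NRF2, 2 rose and 1 fell at 24 h, and 1 fell at 48 h (limma), where 19.4% and 13.8% of all genes were called. DPP3, a peptidase that binds KEAP1, fell by 0.70 (adjusted p = 0.0253) at 24 h and 0.66 (adjusted p = 0.0374) at 48 h. TRIM16, a ubiquitin ligase, rose by 1.54 at 24 h (adjusted p = 0.0302), and the acetyltransferase CREBBP by 0.46 (adjusted p = 0.0305). PALB2, a DNA repair protein that can bind KEAP1, was at -0.45 (adjusted p = 0.0596, and adjusted p = 0.0136 with the block). With KEAP1, CUL3 and RBX1 form the ligase that marks NRF2 for degradation. CUL3 was at -0.19 at 24 h and did not pass, and RBX1 was at -0.37 (adjusted p = 0.0972, and adjusted p = 0.0299 with the block).

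In the list of other thioredoxin, glutaredoxin and peroxidase genes, 17 were tested, of which 2 rose and 3 fell at 24 h and 3 rose and 4 fell at 48 h (limma). Of all genes 10.6% rose and 8.85% fell at 24 h, and 8.45% rose and 5.34% fell at 48 h. TXNIP, which binds thioredoxin and blocks it, averaged 12.10 ± 0.25 in Nnm 24 h and 9.45 ± 0.36 in control 24 h, and 12.16 ± 0.40 in Nnm 48 h and 6.03 ± 1.56 in control 48 h (SD, n = 3). It rose by 2.66 (adjusted p = 0.016) and 6.13 (adjusted p = 0.0012), with nearly equal Nnm means and a lower control mean at 48 h. Nucleoredoxin (NXN) fell by 0.53 (adjusted p = 0.0143) and 0.63 (adjusted p = 0.0107). The methionine sulfoxide reductase MSRB2 rose by 0.45 at 48 h (adjusted p = 0.0162), and the secreted peroxidase GPX3 fell by 0.66 at 48 h (adjusted p = 0.0304). Among 20 other glutathione genes tested, 0 rose and 1 fell at each time, where 19.4% and 13.8% of all genes were called. These were the transferase GSTK1, which fell by 0.50 at 24 h (adjusted p = 0.0464), and OPLAH, which returns 5-oxoproline to glutamate and fell by 1.29 at 48 h (adjusted p = 0.0395). OPLAH lay near the limit of 4 for testing in Nnm 48 h, at a mean of 4.12, against 5.41 in control 48 h. CHAC2, a glutathione-degrading cyclotransferase, was at -0.87 at 24 h (adjusted p = 0.0541, and adjusted p = 0.0233 with the block), and the peptidase LAP3 was at -0.34 at 48 h (adjusted p = 0.121).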

How the data were processed

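RNA from each HK-2 culture was labelled with biotin and read on 1 Affymetrix array of 54675 probe sets, 12 arrays in 4 groups of 3, a number that limits how precise any value is. The authors deposited log2 values computed with GCRMA, per the submitters' processing notes. Neither its version nor the set of arrays normalised together is given in the sources used here. The range of the values gave the log base.

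The platform annotation supplied the gene of each probe set. Probe sets with 1 gene that exceeded 4 (log2) on 3 or more arrays were kept, and each gene was read from the one with the highest mean over all arrays. Of the 37 tested members 19 had several kept probe sets, which all shared a sign in 17 at 24 h and 15 at 48 h. The 5 kept probe sets that list a member beside another gene were not used.

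All 12 arrays entered one limma fit (limma 3.58.1, R 4.3.3), and p-values of the 10907 genes were adjusted after Benjamini and Hochberg, with 0.05 as the threshold. Each SE is limma's, pooled over the arrays. Arrays of the same replicate number and time correlated at 0.34 to 0.512 after group means were removed and those of the same number at the other time at 0.318 to 0.696, and those of different numbers at -0.587 to 0.119. The numbers were therefore taken to pair the arrays. The main fit used group means only and left this pairing out, and the replicate block was an alternative to it. Members and gene lists were chosen with earlier results of these data known, as were the alternatives. Array values are given for members past the threshold at either time and for NFE2L2, KEAP1, BACH1, HMOX1, TXN, GPX4, SOD1 and GSTP1, and of each other list the 4 genes with the smallest p are named. SQSTM1, GCLM, GSR, SRXN1, CAT, EPHX1 and further genes were named after their values were seen. Alternatives covered the filter, the choice of probe set, normalisation, spread model, replicate block, groups fitted and left-out arrays. Motifs were searched on both strands of RefSeq promoter windows, and figures were made in matplotlib 3.10.9 under Python 3.11.15. The fit was tested on simulated data.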

Additional observations from a re-analysis of the deposited data

How the results depend on the processing

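No result or member turned its direction while called. At 24 h, where 6 members were called, 2 were called with no filter (41 tested), 15 with array weights, 13 with the replicate block over all arrays, 10 with the replicate block within each time, 3 with the compared groups alone, 14 without both Nnm replicate 2 arrays and 12 without all 4 replicate 2 arrays. Leaving out single arrays gave 2 to 13, with 2 without Nnm 24 h replicate 1 or 3 or control 24 h replicate 1 or 3, 3 without control 24 h replicate 2 and 13 without Nnm 24 h replicate 2. At 48 h, also at 6, the counts were 3 with no filter, 11 with array weights, 14 and 10 with the replicate blocks, 2 with the compared groups alone and 11 without both Nnm replicate 2 arrays. Single arrays left out gave 0 to 9, with 0 without replicate 1 or 3 of Nnm 48 h or control 48 h. Between Nnm 48 h and Nnm 24 h, where 0 were called, array weights gave 13, the replicate block 2, the fit without both Nnm replicate 2 arrays 6, without all replicate 2 arrays 5, and single arrays left out 0 to 12 (12 without Nnm 24 h replicate 2). Between the control groups the replicate block gave 1, and for the difference of the effects leaving out both Nnm replicate 2 arrays gave 1. Fewer arrays in the fit leave fewer degrees of freedom, and no filter means more genes tested. Why the counts moved was not tested for any setting. The block within each time has no value for comparisons between times. The replicate block changed no call of a member beyond those given beside the results.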
